A study of Mus musculus with 6 samples.

Results

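The 9 genes described here, Cldn5, Ocln, Tjp1, Mfsd2a, Plvap, Slc2a1, Abcb1a, Abcg2 and Slco1a4, are genes of the blood-brain barrier among the 32285 features counted in nuclei of mouse cortical lesions. They were chosen by name for their place in the barrier. Each was followed as normalised counts (CPM, in which the unique molecular identifiers, UMIs, of a class of nuclei in a library are scaled to a common total) in endothelial nuclei, which were named by other marker genes, and in the other classes. The lesions were made by photothrombosis (PT), in which light and a dye close cortical vessels, and were dissected from perfused adult mice of both sexes together with residual parenchyma. Nuclei were sorted on scatter and DAPI and captured in droplets. The 3 conditions were Ctrl, which were wild-type (WT) mice with no treatment entered in the labels, ADWA11, which were WT mice given an antibody against integrin αvβ8 from the day of injury, and Tgfbr2-cKO, which were mice of the genotype Col1a2(creER); Tgfbr2(flox). In the last, a tamoxifen-inducible Cre under the Col1a2 promoter targets the TGFβ receptor in fibroblasts, so endothelial cells are not the intended target. Each condition was collected at 7 and at 21 days post injury (dpi), and all 6 groups carried the lesion. The tissue of 1 male and 1 female mouse was combined in each, so a group was 1 library and no test between groups was made. The methods place the lines on a C57BL/6 background, and the labels give no isotype antibody for Ctrl.

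The blood-brain barrier is a property of the endothelial cells of brain vessels. Tight junctions close the gaps between neighbouring cells, vesicular transport across the cell is kept low, and transporters carry nutrients inward and drugs and waste outward. Endothelial cells keep these features under signals from astrocytes, pericytes and Wnt ligands, and ischaemic injury is known to open the barrier. Cldn5 and Ocln encode membrane proteins of the tight junction, claudin-5 and occludin, and Tjp1 encodes ZO-1, a scaffold under the membrane that many other cells also use. Mfsd2a carries lysophospholipids and restrains vesicle formation, while Plvap forms the diaphragms of vesicles and fenestrae and is low in a mature barrier. Slc2a1 encodes the glucose transporter GLUT1, Abcb1a and Abcg2 encode the efflux pumps P-glycoprotein and BCRP, and Slco1a4 encodes an organic anion transporter.

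In GRCm38 (mm10), by GENCODE positions, the junction genes were Cldn5 (chr16:18776847-18778262, plus strand), a gene of 1 exon, Ocln (chr13:100496507-100552718, minus strand) and Tjp1 (chr7:65296165-65527781, minus strand). Mfsd2a (chr4:122946850-122961188, minus strand) and Slc2a1 (chr4:119108711-119137983, plus strand) lie on the same chromosome, and Plvap is at chr8:71497765-71511752, minus strand. The pumps and the anion transporter were Abcb1a (chr5:8660077-8748575, plus strand), Abcg2 (chr6:58584523-58695676, plus strand) and Slco1a4 (chr6:141805440-141856199, minus strand). All 9 are protein-coding, and the libraries were made with reagents for the 3′ ends of transcripts. Abcb1a has the close relative Abcb1b, and Slco1a4 belongs to a family of similar genes, so reads that such copies share could be counted for either or lost.

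The 250 bases before the RefSeq start of a gene are shown for the members that were past a 2-fold difference from Ctrl in at least 2 comparisons below and had an entry in the RefSeq table (GRCm38.p6), since these are the stretches where factors that act on several members together could bind. They are Cldn5 at chr16:18776597-18776846, Mfsd2a at chr4:122961189-122961438, Slc2a1 at chr4:119108495-119108744 and Slco1a4 at chr6:141856221-141856470, each 5′ to 3′ on the strand of its gene. For Slc2a1 and Slco1a4 this start differs from that of the GENCODE gene given above, and the last bases of the Slc2a1 window lie within the GENCODE gene. Capitals mark matches, on either strand, of AGGAAG (an ETS core), CTTTGA (a TCF/LEF core) and TAAACA (a forkhead core).
Cldn5: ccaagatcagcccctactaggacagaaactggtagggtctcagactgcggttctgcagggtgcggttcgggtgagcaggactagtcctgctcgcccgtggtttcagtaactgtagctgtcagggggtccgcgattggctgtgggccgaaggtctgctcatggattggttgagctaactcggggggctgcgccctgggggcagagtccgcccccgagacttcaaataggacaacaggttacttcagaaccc
Mfsd2a: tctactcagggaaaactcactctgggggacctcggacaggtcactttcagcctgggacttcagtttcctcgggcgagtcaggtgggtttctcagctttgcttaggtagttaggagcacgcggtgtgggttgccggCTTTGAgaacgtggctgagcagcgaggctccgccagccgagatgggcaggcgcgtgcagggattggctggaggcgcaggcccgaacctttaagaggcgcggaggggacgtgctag
Slc2a1: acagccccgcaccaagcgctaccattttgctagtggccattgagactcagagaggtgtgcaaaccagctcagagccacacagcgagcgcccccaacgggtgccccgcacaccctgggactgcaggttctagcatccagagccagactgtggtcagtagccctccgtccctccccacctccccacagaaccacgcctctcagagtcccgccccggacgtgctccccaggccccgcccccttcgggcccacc
Slco1a4: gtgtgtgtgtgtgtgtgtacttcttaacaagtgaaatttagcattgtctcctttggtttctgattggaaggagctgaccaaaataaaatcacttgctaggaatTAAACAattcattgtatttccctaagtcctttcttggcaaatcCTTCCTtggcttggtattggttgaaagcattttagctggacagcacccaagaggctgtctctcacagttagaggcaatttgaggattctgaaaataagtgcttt
Mfsd2a held 1 TCF/LEF match and Slco1a4 held 1 ETS and 1 forkhead match, while the Cldn5 and Slc2a1 windows held none of the 3. The ETS core was in 29.5% of 32817 RefSeq windows of this length, the TCF/LEF core in 13.8% and the forkhead core in 12%. A match is a run of letters and does not show that a factor binds.

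The 6 libraries held 7205 to 14246 barcodes with 64798965 to 140310354 UMIs, and 61917 of 67360 barcodes passed the filters. Between 21 and 61 barcode sequences were shared by any pair of libraries, at most 0.513% of the smaller. In fibroblasts, Tgfbr2 stood at 331 CPM in Ctrl, 257 in ADWA11 and 249 in Tgfbr2-cKO on day 7, followed by 239.9, 203 and 197 CPM on day 21. In endothelial nuclei it was 429, 490.3 and 357 CPM, then 319, 295 and 280.5 CPM. The counts are per gene and do not separate the floxed exons named in the methods from the rest, so these levels do not check the deletion. Nuclei named as neurons made up 4678 of 10594 in Tgfbr2-cKO at 7 dpi and 805 of 6583 at 21 dpi. On these days they were 118 of 8294 and 192 of 13083 in Ctrl, and 27 of 10950 and 10 of 12413 in ADWA11. A further cluster of 1282 nuclei, 1260 from Tgfbr2-cKO at 7 dpi, had 6 of 8 neuron markers raised but stayed unnamed.

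Endothelial nuclei formed 1 cluster of 1677 nuclei in which 13 of 13 endothelial markers, Pecam1, Cdh5, Flt1 and Tek among them, were raised over the other nuclei. None of the 9 genes was used to name it. The cluster held 269 nuclei in Ctrl, 208 in ADWA11 and 37 in Tgfbr2-cKO on day 7. On day 21 it held 639, 394 and 130. Out of all nuclei of a library these made up 3.24%, 1.90% and 0.349% on the earlier day, then 4.88%, 3.17% and 1.97%. By mouse, the 21 dpi share was 4.44% in Ctrl and 4.54% in ADWA11 for the female, and 4.73% and 1.95% for the male. Fewer endothelial cells and more of the surrounding tissue in a sample cannot be told apart by these shares. The median UMI count per endothelial nucleus ranged from 3845 to 6345. Doublets were called for 18.5% of the cluster, unequally between libraries. Without them, 229 of 269 nuclei in Ctrl, 171 of 208 in ADWA11 and 37 of 37 in Tgfbr2-cKO were left on day 7. On day 21 these were 501 of 639, 307 of 394 and 122 of 130.

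Markers of other classes within these nuclei differed between libraries. The 8 fibroblast markers, Col1a1 and Col1a2 among them, summed to 255 and 218 CPM in the Tgfbr2-cKO libraries of 7 and 21 dpi, against 903 to 2547 CPM in the other 4 libraries. The 8 neuron markers summed to 255 and 165 CPM in Tgfbr2-cKO and to 9.35 to 24.4 CPM elsewhere. The 7 astrocyte markers were highest in Tgfbr2-cKO at 21 dpi, at 522 CPM against 143 to 324 CPM. The 7 oligodendrocyte markers summed to 265 and 326 CPM in Tgfbr2-cKO, above the 34.5 to 143 CPM of the other libraries. The 13 endothelial markers summed to 11181 to 14383 CPM. The part of this admixture in the values below was not tested, except where nuclei sets without it are given.

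Endothelial nuclei had the highest level among the named classes for 8 of the 9 genes, pooled over libraries. Intervals in parentheses are 95% and cover counting error alone. Cldn5 was the most restricted by this measure, with 320.3 CPM (309 to 332) in endothelial nuclei, 19.0 CPM (14.2 to 24.8) in mural nuclei and at most 4.59 CPM in any other named class. Of all Cldn5 UMIs, 71.0% lay in the endothelial nuclei. Slco1a4 followed with 61.7% of its UMIs, at 772 CPM (754 to 790.0) in endothelial nuclei and 44.7 CPM (42.1 to 47.5) in astrocytes. Plvap stood at 104 CPM (97.3 to 110.4) and Ocln at 122 CPM (115 to 129), and no other named class passed 14.7 CPM for Plvap or 7.16 CPM for Ocln, both in mural nuclei. The plot of levels by class gives every library.

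**Figure D1:**
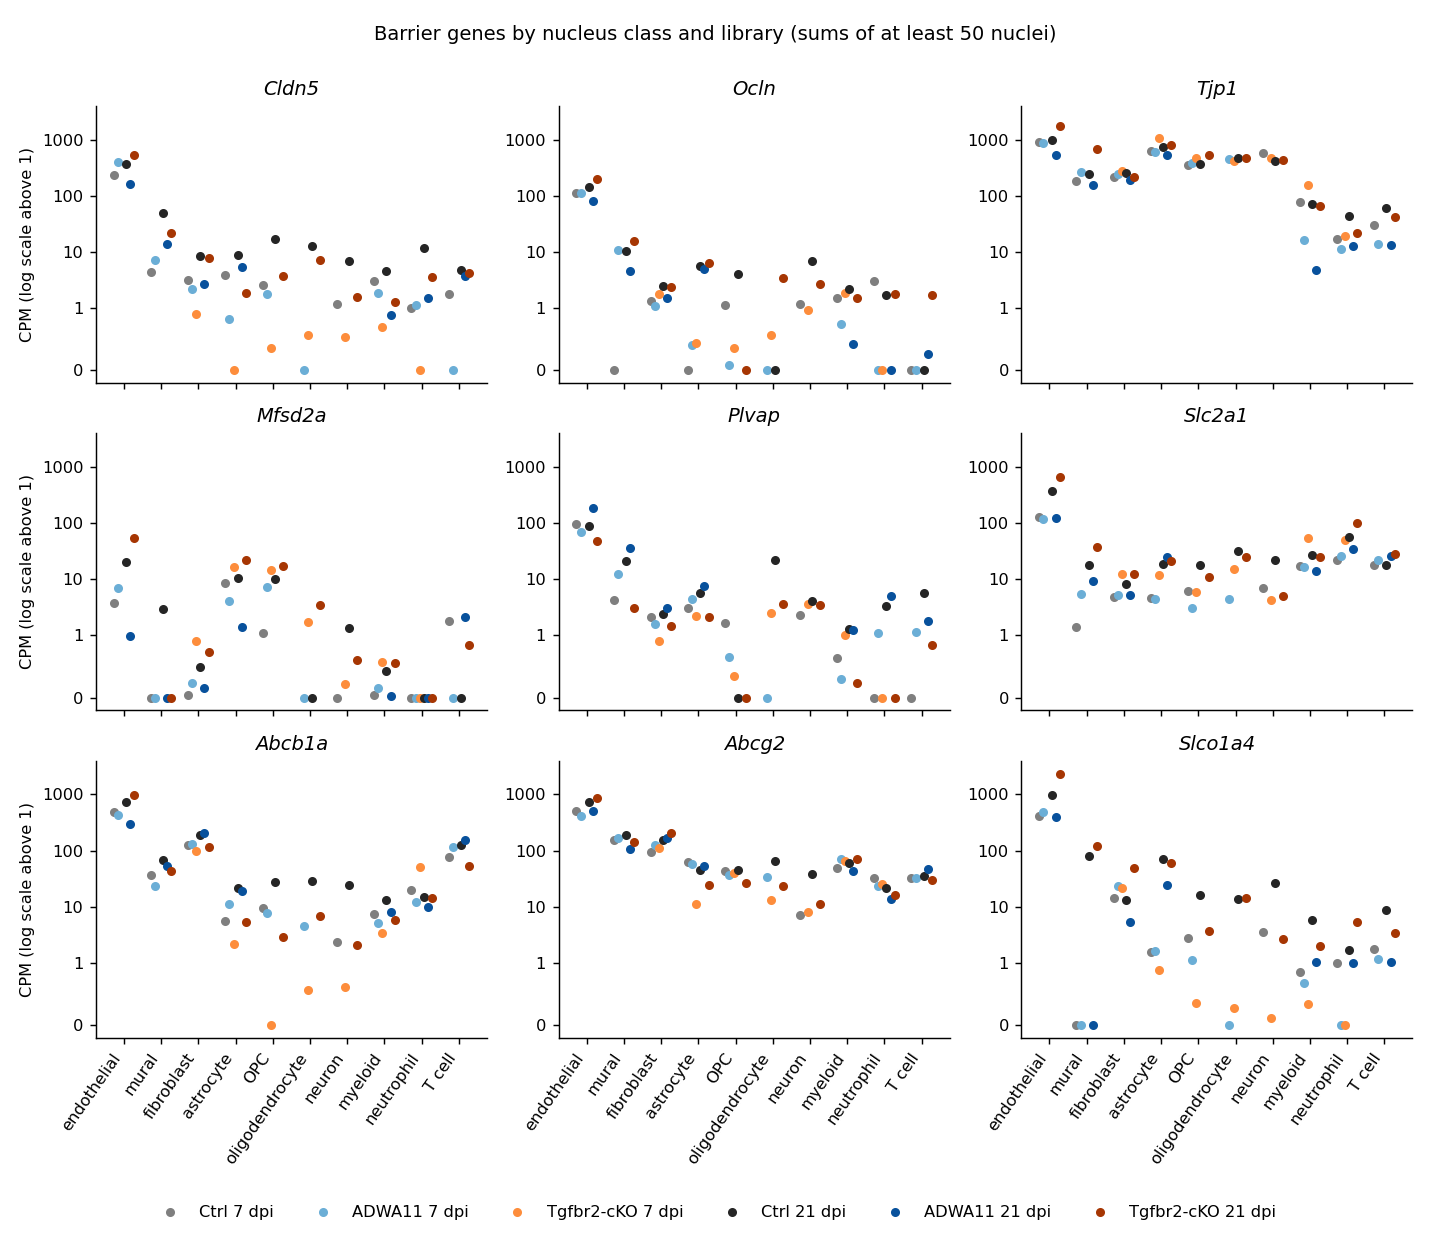
Level of each of the 9 genes in each named class of nuclei, in CPM (log scale above 1), with 1 point per library where at least 50 nuclei were summed. Endothelial points stand above those of every other class for 7 genes, while Tjp1 and Mfsd2a points of astrocytes, at 13.0 CPM for Mfsd2a over all libraries, reach those of endothelial nuclei.

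Mfsd2a was the exception. It stood at 13.0 CPM (11.6 to 14.5) in astrocytes, 12.9 CPM (10.7 to 15.4) in endothelial nuclei and 8.21 CPM (7.01 to 9.55) in oligodendrocyte precursors (OPCs), so the astrocyte and endothelial levels overlapped. Library by library, the endothelial level was the higher in 4 of 6, and the astrocyte level in Ctrl at 7 dpi and ADWA11 at 21 dpi. Only 122 of its UMIs came from endothelial nuclei, and every Mfsd2a value below rests on few counts. Tjp1 was broad, as a scaffold of many cell types, with 911 CPM (892 to 931) in endothelial nuclei, 744 CPM (733 to 755) in astrocytes and 461 CPM (457 to 465) in neurons. The efflux pumps were shared with stroma. Abcb1a was at 563 CPM (548 to 578) in endothelial nuclei, 164 CPM (162 to 167) in fibroblasts and 123 CPM (115 to 131) in T cells, and fibroblasts, the larger class, held 60.0% of its UMIs. Abcg2 was at 591 CPM (575 to 606) in endothelial nuclei, 153 CPM (139 to 168) in mural nuclei and 142 CPM (139 to 144) in fibroblasts. Slc2a1 was at 246 CPM (236 to 256) in endothelial nuclei and at most 40.5 CPM elsewhere, in neutrophils.

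Free RNA puts some UMIs of these genes into nuclei that do not express them, so shares of nuclei with a UMI were set beside those of neurons after thinning each nucleus to 2000 UMIs. In Ctrl at 21 dpi, 46.5% of endothelial and 6.94% of neuronal nuclei held a Slco1a4 UMI, from 520 and 72 nuclei. In Tgfbr2-cKO at 21 dpi the shares were 67.0% and 0.962%, from 109 and 624 nuclei. Before thinning, with median depths of 3994 UMIs in endothelial and 1415 in neuronal nuclei of Ctrl at 21 dpi, they were 51.6% and 7.29%. For Plvap in Tgfbr2-cKO at 21 dpi, the lowest endothelial share at that day, 6.42% of endothelial and 0.962% of neuronal nuclei held a UMI after thinning. In each of these cases the endothelial share stood above the neuronal one.

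Among the junction genes, Cldn5 differed most between libraries. At 7 dpi, Cldn5 stood at 238 CPM (216 to 261) in Ctrl, 403 CPM (372 to 435) in ADWA11 and 718 CPM (605 to 847) in Tgfbr2-cKO. At 21 dpi, the levels were 364 CPM (343 to 386), 159 CPM (143 to 178) and 537 CPM (482 to 597) in the same order of conditions. Ctrl was lowest at 7 dpi, and ADWA11 moved from the middle of the order at 7 dpi to its foot at 21 dpi, with no overlap of the intervals at either day. At 7 dpi, Ocln stood at 113 CPM (98.3 to 129) in Ctrl, 109 CPM (93.7 to 127) in ADWA11 and 204 CPM (146 to 278) in Tgfbr2-cKO. At 21 dpi, the levels were 140.2 CPM (127 to 154), 79.7 CPM (67.9 to 93.0) and 194 CPM (162 to 232) in the same order of conditions. For occludin, Ctrl and ADWA11 overlapped at 7 dpi, and at 21 dpi ADWA11 was lowest and Tgfbr2-cKO highest, without overlap. By mouse, the 7 dpi log2 ratio of ADWA11 to Ctrl was -1.04 (-1.70 to -0.41) in female and 0.65 (0.22 to 1.08) in male nuclei. At 7 dpi, Tjp1 stood at 922 CPM (879 to 966) in Ctrl, 879 CPM (834 to 927) in ADWA11 and 1452 CPM (1288 to 1631) in Tgfbr2-cKO. At 21 dpi, the levels were 968 CPM (934 to 1003), 528 CPM (497 to 561) and 1731 CPM (1631 to 1836) in the same order of conditions. The scaffold gene had the same order at 21 dpi, again without overlap, and at 7 dpi Ctrl and ADWA11 overlapped below Tgfbr2-cKO.

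**Figure D2:**
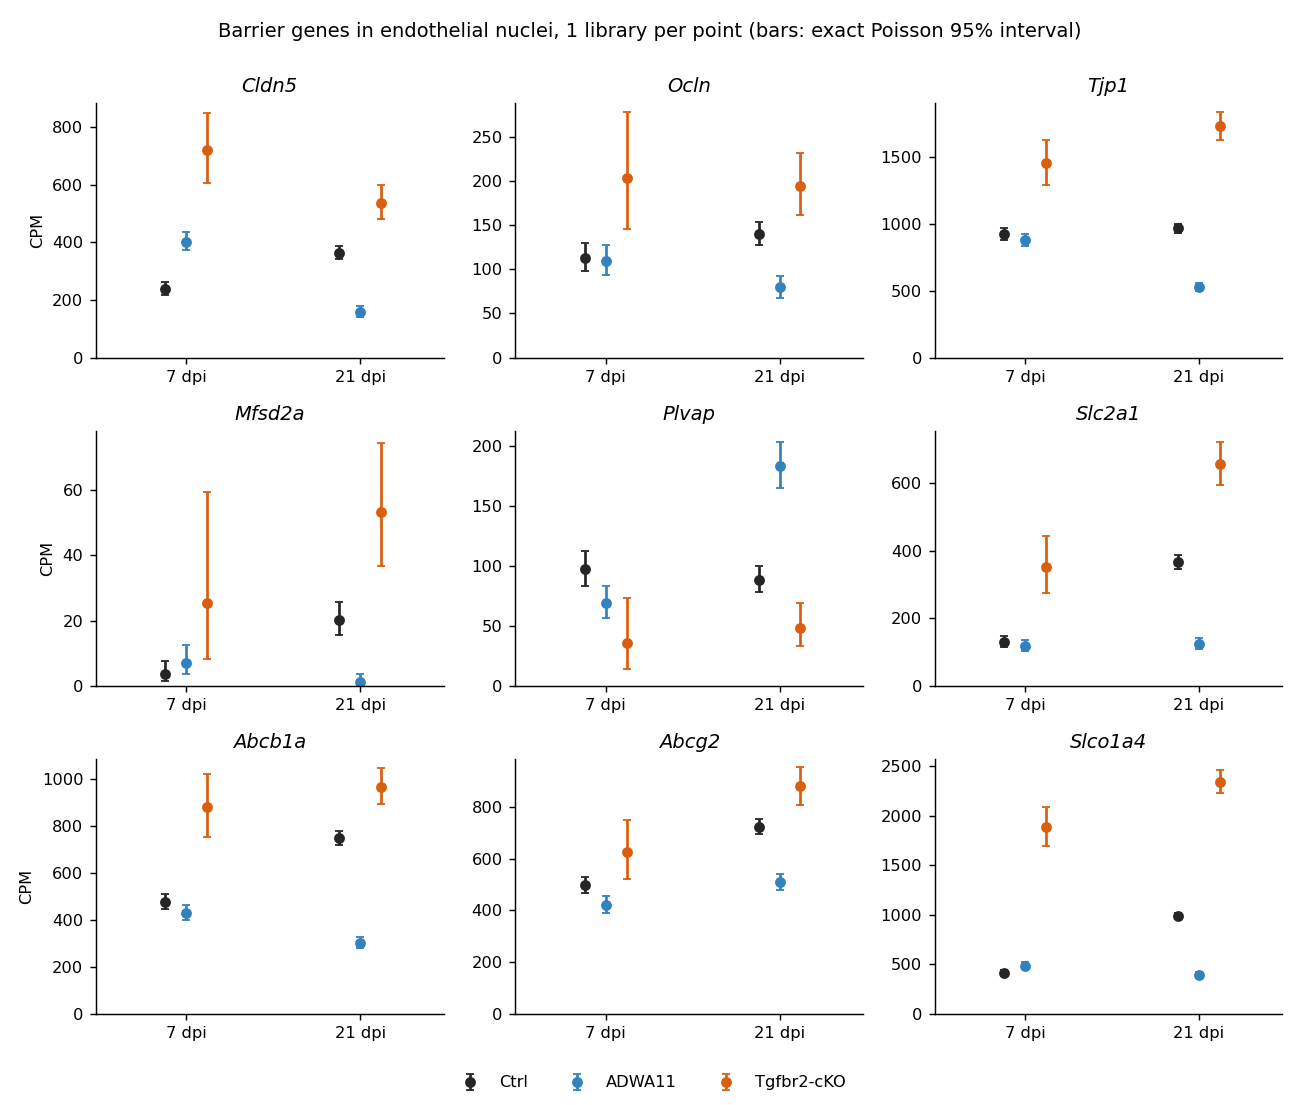
Level of each gene in endothelial nuclei of each library, in CPM, with 95% Poisson intervals that cover counting error. At 21 dpi ADWA11 is lowest for the 8 genes other than Plvap and highest for Plvap, at 183 CPM.

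The pair of genes tied to vesicles and fenestrae stood in opposite order at 21 dpi. Mfsd2a, the inhibitor of vesicle formation, had 7, 11 and 5 UMIs in Ctrl, ADWA11 and Tgfbr2-cKO of day 7. On day 21 the numbers were 63, 2 and 34. In level these were 3.71 CPM (1.49 to 7.65), 7.04 CPM (3.51 to 12.6) and 25.5 CPM (8.27 to 59.5) at 7 dpi, then 20.1 CPM (15.4 to 25.7), 0.984 CPM (0.119 to 3.55) and 53.3 CPM (36.9 to 74.4) at 21 dpi. The 21 dpi levels did not overlap. At 7 dpi the ADWA11 interval overlapped both others, and those of Ctrl and Tgfbr2-cKO were apart. The Plvap level at 7 dpi was 97.1 CPM (83.5 to 112) in Ctrl, 69.1 CPM (56.7 to 83.5) in ADWA11 and 35.7 CPM (14.3 to 73.5) in Tgfbr2-cKO. These were followed by 88.6 CPM (78.5 to 99.6), 183 CPM (165 to 203) and 48.6 CPM (33.0 to 68.9) at 21 dpi. Plvap, which marks leaky or fenestrated endothelium, was thus highest in ADWA11 at 21 dpi, and the Tgfbr2-cKO library was lowest at both days. Of the 373 Plvap UMIs of ADWA11 at 21 dpi, 147 came from lymphatic-like nuclei, which made up 22.8% of its endothelial nuclei and 4.85% of those of Ctrl. At 21 dpi no intervals overlapped, while at 7 dpi the ADWA11 interval overlapped that of Tgfbr2-cKO and ended just below that of Ctrl. The Plvap values of Tgfbr2-cKO rest on 7 and 31 UMIs.

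Of the transporters, Slco1a4 had the widest span. At 7 dpi, Slco1a4 stood at 412 CPM (384 to 442) in Ctrl, 487 CPM (453 to 523) in ADWA11 and 1885 CPM (1698 to 2087) in Tgfbr2-cKO. At 21 dpi, the levels were 987 CPM (952 to 1022), 392 CPM (365 to 419.8) and 2346 CPM (2228 to 2467) in the same order of conditions. ADWA11 was above Ctrl at 7 dpi by a log2 ratio of 0.24 (0.095 to 0.39), but was at -0.47 in nuclei of the female mouse and 0.61 in those of the male. Tgfbr2-cKO stood far above both on each day, and Ctrl at 21 dpi lay between the other conditions. The Slc2a1 level at 7 dpi was 131 CPM (115 to 148) in Ctrl, 118 CPM (102 to 137) in ADWA11 and 352 CPM (274 to 445) in Tgfbr2-cKO. These were followed by 367 CPM (346 to 389), 124 CPM (109.6 to 141) and 658 CPM (597 to 724) at 21 dpi. The glucose transporter gene had the same order at 21 dpi, and its Ctrl and Tgfbr2-cKO levels were both above those of 7 dpi. Its Ctrl and ADWA11 intervals overlapped at 7 dpi.

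Both efflux pumps were higher at 21 than at 7 dpi in Ctrl and lowest in ADWA11 at 21 dpi among libraries of that day. The Abcb1a level at 7 dpi was 478 CPM (447 to 510.3) in Ctrl, 431 CPM (399 to 465) in ADWA11 and 881 CPM (755 to 1023) in Tgfbr2-cKO. These were followed by 747 CPM (717 to 778), 303 CPM (279 to 327) and 967 CPM (892 to 1046) at 21 dpi. The Abcg2 level at 7 dpi was 497 CPM (466 to 530.0) in Ctrl, 421 CPM (389 to 454) in ADWA11 and 627 CPM (521 to 748) in Tgfbr2-cKO. These were followed by 723 CPM (694 to 754), 509 CPM (479 to 541) and 881 CPM (809 to 956) at 21 dpi. At 7 dpi the intervals of Ctrl and ADWA11 overlapped for Abcb1a and those of Ctrl and Tgfbr2-cKO for Abcg2. The 21 dpi levels did not overlap for either gene.

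The comparison of Tgfbr2-cKO with Ctrl asks how endothelial nuclei differ where the receptor gene is targeted in fibroblasts. The make-up of the sampled tissue differed along with the genotype. At 7 dpi, nuclei named as neurons were 4678 of 10594 in Tgfbr2-cKO and 118 of 8294 in Ctrl. The part of this difference in the member ratios was not tested. At 7 dpi, 8 members had enough UMIs, at least 5 expected in each library at the pooled rate, and 3 were higher by 2-fold or more. These were Slco1a4 with a log2 ratio of 2.19 (2.01 to 2.37), Cldn5 with 1.60 (1.31 to 1.87) and Slc2a1 with 1.42 (1.02 to 1.81). Among all genes that met this count, 4.4% were higher by that fold. Plvap was lower, at -1.44 (-2.78 to -0.37), as were 8.85% of all genes. Abcb1a at 0.88 (0.64 to 1.12), Ocln at 0.85 (0.33 to 1.34), Tjp1 at 0.66 (0.47 to 0.84) and Abcg2 at 0.33 (0.051 to 0.61) lay above 0 and within 2-fold. Mfsd2a was short of the count, with a log2 ratio of 2.78 (0.78 to 4.65) from 5 and 7 UMIs. The median over the 8 members was 0.87, beside -0.049 over all genes. With venous-like nuclei alone, a sub-cluster described further on, Slco1a4 was at 1.30, Cldn5 at 1.44, Slc2a1 at 0.83 and Plvap at -0.73, the last 2 within 2-fold. In female nuclei Plvap was at -0.89. All of this rests on 37 Tgfbr2-cKO nuclei.

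At 21 dpi, 130 Tgfbr2-cKO nuclei were set against 639 of Ctrl. Nuclei named as neurons were 805 of 6583 and 192 of 13083 in these libraries, and the part of this difference was again not tested. Mfsd2a, with 1.41 (0.76 to 2.03), and Slco1a4, with 1.25 (1.16 to 1.34), were the 2 of 9 members higher by 2-fold or more, beside 4.02% of all genes. No member was lower by that fold, beside 10.1% of all genes. Slc2a1 at 0.84 (0.68 to 1.00), Tjp1 at 0.84 (0.74 to 0.94), Cldn5 at 0.56 (0.38 to 0.74) and Ocln at 0.47 (0.17 to 0.76) lay above 0. The pumps Abcb1a at 0.37 (0.24 to 0.50) and Abcg2 at 0.28 (0.15 to 0.42) had the smallest ratios above 0, and Plvap was at -0.87 (-1.45 to -0.33). The member median was 0.56, against -0.032 for all genes. With venous-like nuclei alone, the member median was -0.17 and both calls were lost, with Mfsd2a at -1.13 and Slco1a4 at 0.17. In male nuclei these were at 0.43 and 0.81, within 2-fold, and Slco1a4 was at 0.99 without doublet sub-clusters.

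The comparison of ADWA11 with Ctrl asks the same for blockade of the integrin. At 7 dpi none of the 9 members was past 2-fold in either direction, beside 7.91% of all genes higher and 4.32% lower. Mfsd2a was at 0.92 (-0.58 to 2.53) from 11 and 7 UMIs, Cldn5 at 0.76 (0.58 to 0.94) and Plvap, the lowest, at -0.49 (-0.85 to -0.14). The member median was -0.068, beside 0.088 for all genes. Within venous-like nuclei, from 40 against 92, 8 of 9 members lay above 0, and Cldn5 at 1.65 (1.39 to 1.92) and Slco1a4 at 1.22 (1.04 to 1.39) were higher and Plvap at -1.19 (-2.33 to -0.21) lower by 2-fold or more.

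At 21 dpi, 5 of 9 members were lower in ADWA11 by 2-fold or more, beside 6.32% of all genes, and 1 was higher, beside 4.66%. The lower members were the claudin gene Cldn5 at -1.19 (-1.37 to -1.01), the vesicle inhibitor Mfsd2a at -4.35 (-7.43 to -2.44), the glucose transporter gene Slc2a1 at -1.56 (-1.76 to -1.36), the pump gene Abcb1a at -1.30 (-1.43 to -1.17) and the anion transporter gene Slco1a4 at -1.33 (-1.45 to -1.22). Tjp1 at -0.87 (-0.97 to -0.77), Ocln at -0.81 (-1.08 to -0.55) and Abcg2 at -0.51 (-0.61 to -0.40) were lower within 2-fold. The higher member was Plvap, at 1.05 (0.82 to 1.28). Its direction was opposite to that of the other 8 members. The median of all 9 was -1.19, against 0.025 over all genes. The Mfsd2a ratio rests on 2 UMIs in ADWA11. These calls varied with the sub-clusters included. In venous-like nuclei alone Slc2a1 at -0.95, Abcb1a at -0.89, Slco1a4 at -0.52 and Plvap at 0.99 were within 2-fold, and Tjp1 at -1.15 was past it. Plvap was at 0.88, within 2-fold, without lymphatic-like nuclei, and Cldn5 was at -0.95 without these and the doublet sub-clusters.

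**Figure D3:**
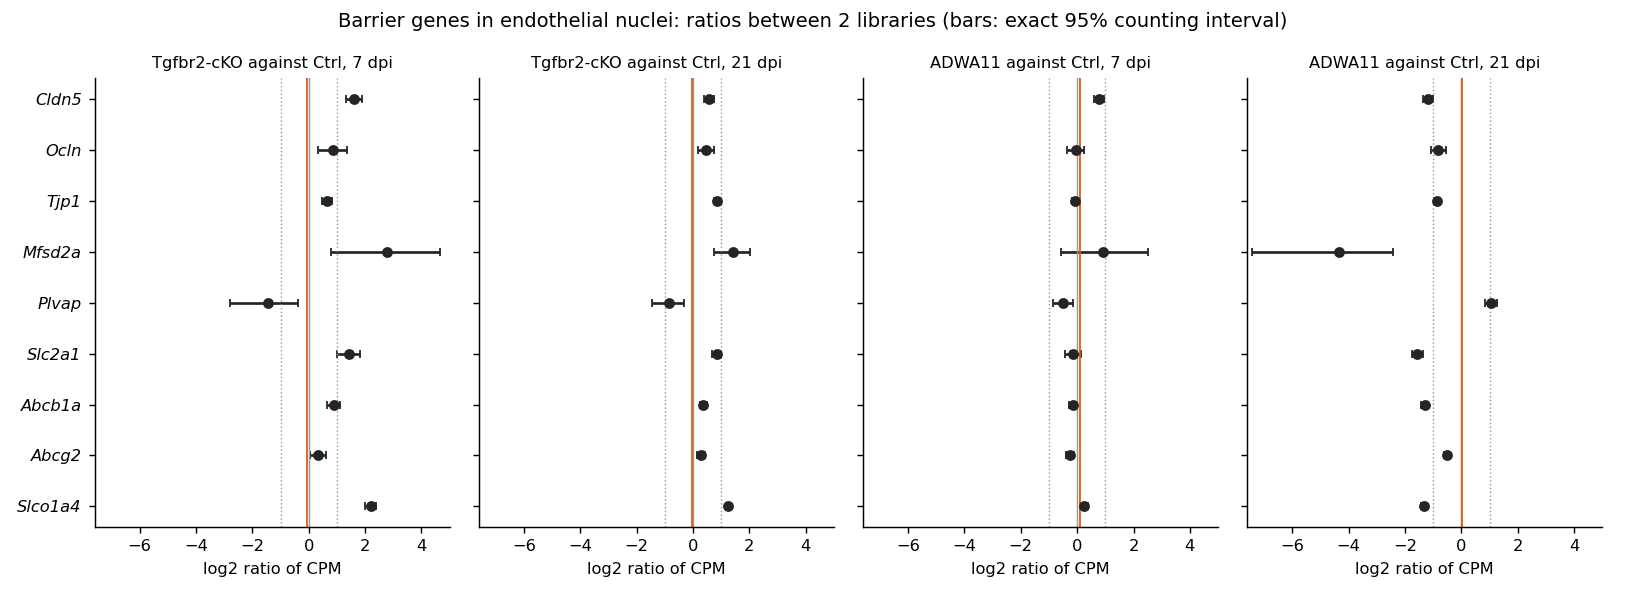
Log2 ratio of CPM between libraries in endothelial nuclei for each gene and comparison, with 95% conditional binomial intervals for counting error. Dotted lines mark a 2-fold difference and the orange line the median of all genes tested; in ADWA11 against Ctrl at 21 dpi, 8 of 9 genes lie left of 0 and Plvap lies right, at 1.05.

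From 7 to 21 dpi in Ctrl, 3 of 9 members were higher by 2-fold or more, Mfsd2a at 2.43 (1.31 to 3.81), Slc2a1 at 1.49 (1.29 to 1.69) and Slco1a4 at 1.26 (1.15 to 1.37). This stood beside 16.4% of all genes, and no member was lower by that fold, beside 3.3%. The median over the members was 0.62, and over all genes 0.15. In ADWA11, 6 of 9 members lay below 0. Cldn5 at -1.34 (-1.53 to -1.14) and Mfsd2a at -2.84 (-6.05 to -0.64) were lower at 21 dpi by 2-fold or more, beside 5.97% of all genes, and Plvap was higher at 1.41 (1.10 to 1.73), beside 12.6%, with a member median of -0.46 and an all-gene median of 0.067. The ADWA11 member median was 0.62 in female nuclei, -0.86 in male nuclei and 0.065 without the doublet and lymphatic-like sub-clusters, a set in which Cldn5 was at -0.67. In Tgfbr2-cKO, Mfsd2a alone of the 9 was past 2-fold, higher at 1.06 (-0.30 to 2.78) with an interval that included 0 and at 0.095 in venous-like nuclei alone, beside 9.43% of all genes higher and 4.44% lower. The member and all-gene medians there were 0.32 and 0.036, and the member median was -0.0066 after thinning and -0.11 in male nuclei. The 7 comparisons share libraries, so they are not separate evidence of one another.

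Other genes of the same functions were taken from lists of names. Of the further transporters, 17 to 23 of 24 had enough UMIs in a comparison, and the same 2-fold rule gave 8 higher and 1 lower of 17 in Tgfbr2-cKO against Ctrl at 7 dpi, beside 4.4% of all genes higher and 8.85% lower, and 10 higher and 1 lower of 22 at 21 dpi, beside 4.02% of all genes higher and 10.1% lower. The largest at 21 dpi were Slco1c1, a thyroid hormone transporter, at 2.61 (2.41 to 2.80), Slc1a1, a glutamate transporter, at 2.30 (1.76 to 2.84), and Slc19a3, a thiamine transporter, at 2.06 (1.36 to 2.76). Slco1c1 and Slc19a3 were also among the leading genes of the smallest endothelial sub-cluster, which held 34.6% of Tgfbr2-cKO and 6.89% of Ctrl endothelial nuclei at 21 dpi, and its part in these counts was not tested. In ADWA11 against Ctrl they numbered 0 higher and 0 lower of 22 at 7 dpi, beside 7.91% of all genes higher and 4.32% lower, and 0 higher and 10 lower of 23 at 21 dpi, beside 4.66% of all genes higher and 6.32% lower. Slc22a8, an organic anion transporter, at -2.15 (-3.07 to -1.33), the large neutral amino acid transporter Slc7a5 at -2.08 (-2.36 to -1.81) and the glutamine transporter Slc38a5 at -2.07 (-2.74 to -1.46) had the lowest ratios at 21 dpi. Lymphatic-like nuclei were 22.8% of ADWA11 and 4.85% of Ctrl endothelial nuclei at 21 dpi, and their part in these counts was not tested. The lower transporter in Tgfbr2-cKO was Abcb1b, the relative of Abcb1a, on both days, at -2.0 (-5.07 to -0.10) from 2 UMIs at 7 dpi and -1.36 (-2.34 to -0.51) at 21 dpi. The median over the transporters was 0.77 for Tgfbr2-cKO and -0.55 for ADWA11 at 21 dpi. From 7 to 21 dpi they numbered 7 higher and 0 lower of 23 in Ctrl, 1 higher and 6 lower of 23 in ADWA11 and 1 higher and 0 lower of 20 in Tgfbr2-cKO. Among all genes the shares over time were 16.4% higher and 3.3% lower in Ctrl, 12.6% and 5.97% in ADWA11, and 9.43% and 4.44% in Tgfbr2-cKO.

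Of genes of Wnt signalling and transcription factors tied to barrier upkeep, the rule gave 3 higher and 0 lower of 18 in Tgfbr2-cKO, with a median of 0.50, and 0 higher and 7 lower of 18 in ADWA11, with a median of -0.66, at 21 dpi. The all-gene shares were 4.02% higher and 10.1% lower in Tgfbr2-cKO, and 4.66% and 6.32% in ADWA11. The part of the unequal shares of sub-clusters, lymphatic-like nuclei among them, in these counts was not tested. Apcdd1, a Wnt inhibitor that is itself a Wnt target, was at -1.13 (-1.50 to -0.77) in ADWA11 at 7 dpi and -2.39 (-2.82 to -1.99) at 21 dpi. The forkhead gene Foxq1 at 1.33 (0.78 to 1.86) and the Wnt feedback gene Nkd1 at 1.19 (0.68 to 1.68) were higher in Tgfbr2-cKO at 21 dpi, and Tnfrsf19 was lower in ADWA11 at -1.48 (-1.90 to -1.07). At 7 dpi the counts were 1 higher and 0 lower of 14 for Tgfbr2-cKO, with Sox17 at 1.60 (0.94 to 2.21), and 0 higher and 1 lower of 18 for ADWA11, beside 4.4% and 4.32% of all genes in these directions. Over time none of the list was past 2-fold in Ctrl, beside 16.4% of all genes higher and 3.3% lower, or in Tgfbr2-cKO, beside 9.43% and 4.44%, and in ADWA11 there were 0 higher and 3 lower of 18, beside 5.97% of all genes lower.

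Counts of further junction genes were 1 higher and 0 lower of 14 in Tgfbr2-cKO at 21 dpi, where Marveld2, which encodes tricellulin, was at 1.74 (0.82 to 2.63) and 4.02% of all genes were higher, and 0 higher and 1 lower of 14 in ADWA11, where Lsr, a receptor of tricellular junctions, was at -1.33 (-1.72 to -0.95) and 6.32% of all genes were lower. No junction gene of the list was past 2-fold in the other 5 comparisons, where 12.2% to 19.7% of all genes were, in either direction.

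Of genes of caveolae and vesicles, Tgfbr2-cKO against Ctrl gave 1 higher and 0 lower of 9 at 7 dpi, the caveolar coat gene Cavin2 at 1.52 (0.85 to 2.14), and 0 higher and 1 lower of 10 at 21 dpi, the endocytic receptor gene Lrp1 at -1.50 (-1.94 to -1.09). Of all genes, 4.4% were higher at 7 dpi and 10.1% lower at 21 dpi. ADWA11 had none of 10 at 7 dpi, beside 7.91% of all genes higher and 4.32% lower, and 0 higher and 1 lower of 10 at 21 dpi, where Cavin3 was at -1.36 (-2.10 to -0.67) and 6.32% of all genes were lower. From 7 to 21 dpi the counts were 2 higher and 0 lower of 10 in Ctrl, 0 higher and 2 lower of 10 in ADWA11 and 0 higher and 3 lower of 9 in Tgfbr2-cKO, beside 16.4% of all genes higher in Ctrl and 5.97% and 4.44% lower in the others. The caveolin gene Cav1 was lower at 21 than at 7 dpi in ADWA11 at -1.03 (-1.23 to -0.82) and in Tgfbr2-cKO at -1.44 (-1.98 to -0.90).

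Leukocyte adhesion genes numbered 1 higher and 3 lower of 6 in Tgfbr2-cKO at 7 dpi, beside 4.4% of all genes higher and 8.85% lower. At 21 dpi they numbered 0 higher and 3 lower of 8, beside 4.02% and 10.1%. Vcam1 was at -1.48 (-2.81 to -0.40) and -1.21 (-1.56 to -0.87) on these days, and P-selectin (Selp) at -2.71 (-8.04 to -0.18), from 1 UMI, and -1.10 (-2.04 to -0.28). Icam2 was the higher gene at 7 dpi, at 1.13 (-0.03 to 2.14). In ADWA11 against Ctrl the counts were 1 higher and 1 lower of 7 at 7 dpi, beside 7.91% of all genes higher and 4.32% lower. At 21 dpi they were 0 higher and 1 lower of 8, beside 4.66% and 6.32%. From 7 to 21 dpi the counts were 3 higher and 0 lower of 8 in Ctrl, beside 16.4% of all genes higher and 3.3% lower. They were 5 higher and 1 lower of 8 in ADWA11, beside 12.6% and 5.97%. Tgfbr2-cKO had 2 higher and 0 lower of 5, beside 9.43% and 4.44%. In ADWA11 against Ctrl at 21 dpi, Ackr1, a chemokine receptor of venules, was at -1.84 (-2.49 to -1.24).

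Endothelial nuclei were split further without use of the 9 genes or the listed pathway genes, and the 8 sub-clusters differed in the members. Those that could be named were venous-like (390 nuclei), lymphatic-like (159) and arterial-like (119). Venous-like nuclei had 8 of 9 venous and arterial-like nuclei 10 of 10 arterial markers raised. Lymphatic-like nuclei had 4 of 6 lymphatic markers raised, Prox1, Flt4, Mmrn1 and Reln, but not Lyve1 or Ccl21a. They also had 3 of 9 venous markers raised, so the name is tentative. A pair with 57.1% and 68.6% of nuclei called doublets, of 219 nuclei with fibroblast and 185 nuclei with myeloid markers raised, was taken as mixed. An unnamed sub-cluster of 152 nuclei carried markers of tip cells (9 of 10 raised) and of division (6 of 6). An unnamed sub-cluster of 340 nuclei had 2 raised markers, Rgcc of capillaries and Jchain of B cells, and a median depth of 2556 UMIs. The smallest, of 113 nuclei, was led by Scube2, Ddc, Slc19a3, Car4, Spock2 and Slco1c1. It had 3 of 5 capillary and 4 of 7 astrocyte markers raised and stayed unnamed for the latter.

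That smallest sub-cluster drew 12 of its nuclei from Tgfbr2-cKO at 7 dpi and 45 at 21 dpi. Pooled over libraries, it had the highest level of each member but Plvap, for which it had the lowest. Within Ctrl at 21 dpi, 5 members other than Plvap were lower in it than in venous-like nuclei, with intervals that overlapped for all of these 5 but Tjp1. Plvap was lower there as well, at 5.16 CPM from 1 UMI against 51.2 CPM from 35. There Tjp1 was at 1526 CPM against 2027 in venous-like nuclei, Ocln at 273 against 306, Abcg2 at 1047 against 1209.6, Abcb1a at 1325 against 1351 and Mfsd2a at 25.8 against 30.7. Cldn5 was above venous-like nuclei there too, at 1366 against 608 CPM. In the pooled nuclei Slco1a4 stood at 3513 CPM (3348 to 3684), against 1589.6 CPM in venous-like and 524 CPM in arterial-like nuclei. Cldn5 was at 1307 CPM (1207 to 1413), against 539 and 593 CPM, and Mfsd2a at 80.4 CPM (57.2 to 109.9), against 15.3 and 1.74 CPM. Plvap was at 8.25 CPM (2.25 to 21.1), which overlapped the 10.4 CPM (3.83 to 22.7) of arterial-like nuclei. Abcg2 was at 1043 CPM (954 to 1138), which overlapped the 1017 CPM (974 to 1060.0) of venous-like nuclei. Lymphatic-like nuclei had 64.2 CPM of Cldn5, 16.4 CPM of Slc2a1, 1.37 CPM of Slco1a4 and 352 CPM of Plvap. In the sub-cluster with tip and division markers, Plvap was at 76.6 CPM (62.1 to 93.6) and Slco1a4 at 79.8 CPM (65.0 to 97.1).

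**Figure D4:**
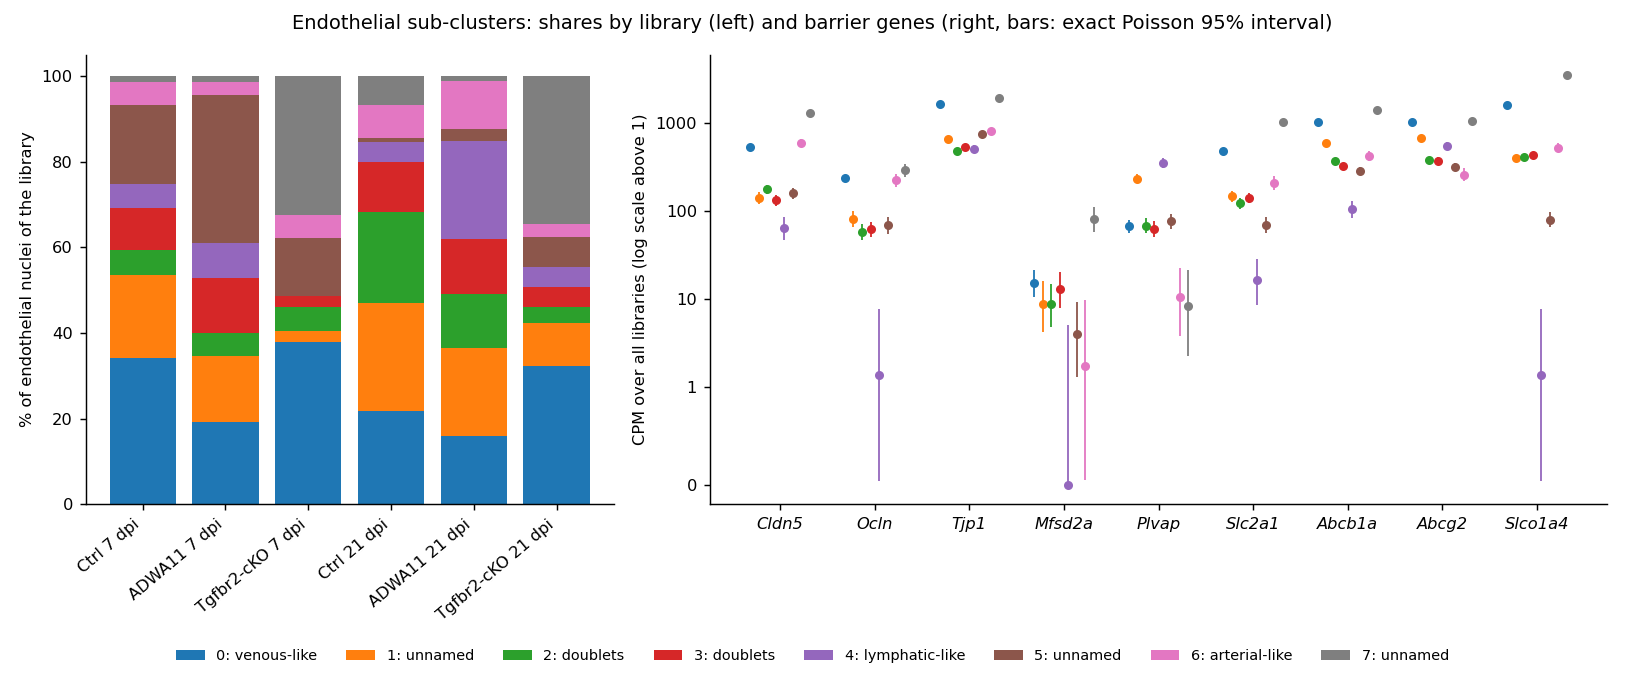
Left, share of each library's endothelial nuclei in each of the 8 sub-clusters, in %. Right, level of each gene in each sub-cluster over all libraries, in CPM (log scale above 1) with exact Poisson 95% intervals. The smallest sub-cluster, number 7, has the highest Slco1a4 and Cldn5 levels and holds 32.4% and 34.6% of the Tgfbr2-cKO nuclei, against at most 6.89% in the other libraries.

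The libraries drew on these sub-clusters unequally. The smallest made up 32.4% (12 of 37 nuclei, 18.0 to 49.8%) of Tgfbr2-cKO endothelial nuclei at 7 dpi and 34.6% (45 of 130 nuclei, 26.5 to 43.5%) at 21 dpi. In Ctrl its share was 1.49% (4 of 269 nuclei, 0.407 to 3.76%) at 7 dpi and 6.89% (44 of 639 nuclei, 5.05 to 9.13%) at 21 dpi. ADWA11 had 1.44% (3 of 208 nuclei, 0.298 to 4.16%) and 1.27% (5 of 394 nuclei, 0.413 to 2.94%). Lymphatic-like nuclei were 22.8% (90 of 394 nuclei, 18.8 to 27.3%) in ADWA11 at 21 dpi and 4.85% (31 of 639 nuclei, 3.32 to 6.82%) in Ctrl. The sub-cluster with tip and division markers held 18.6% (50 of 269 nuclei, 14.1 to 23.8%) in Ctrl and 34.6% (72 of 208 nuclei, 28.2 to 41.5%) in ADWA11 at 7 dpi, and 0.782% (5 of 639 nuclei, 0.255 to 1.82%) in Ctrl at 21 dpi. The mixed pair, with fibroblast and with myeloid markers, held 21.3% and 11.6% of endothelial nuclei in Ctrl at 21 dpi. Its shares on that day were 12.4% and 12.9% in ADWA11 and 3.85% and 4.62% in Tgfbr2-cKO. With 1 library per group these shares describe the libraries.

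Within venous-like nuclei, Tgfbr2-cKO at 21 dpi was not above Ctrl for most members. From 42 nuclei against 139, the member median was -0.17 and 4 of 9 members lay above 0. Cldn5 was at -0.33 (-0.65 to -0.012), Slco1a4 at 0.17 (0.016 to 0.32) and Mfsd2a at -1.13 (-3.52 to 0.61). Leaving out the doublet, lymphatic-like and smallest sub-clusters gave a median of -0.14. Within the smallest sub-cluster itself, from 45 nuclei against 44, 7 of 8 members lay above 0, with Slco1a4 at 1.18 (1.02 to 1.34), and the exception was Cldn5 at -0.33 (-0.60 to -0.053). At 7 dpi the member median was above 0 with venous-like nuclei alone, at 0.65 from 14 Tgfbr2-cKO nuclei.

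ADWA11 at 21 dpi had member medians below 0 in the 6 sub-clusters with enough nuclei in both libraries. The median was -0.89 in venous-like nuclei, from 63 against 139. There Cldn5 was at -1.17 (-1.54 to -0.82), Slc2a1 at -0.95 (-1.26 to -0.65), Slco1a4 at -0.52 (-0.68 to -0.35) and Plvap at 0.99 (0.23 to 1.74). In arterial-like nuclei the median was -0.35 over 8 members, in the unnamed sub-cluster of 340 nuclei -0.82 over 8, in the mixed pair -0.65 and -1.27, and in lymphatic-like nuclei -0.049 over 6. Without the doublet and lymphatic-like sub-clusters it was -0.95, and with the smallest left out as well -0.93.

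**Figure D5:**
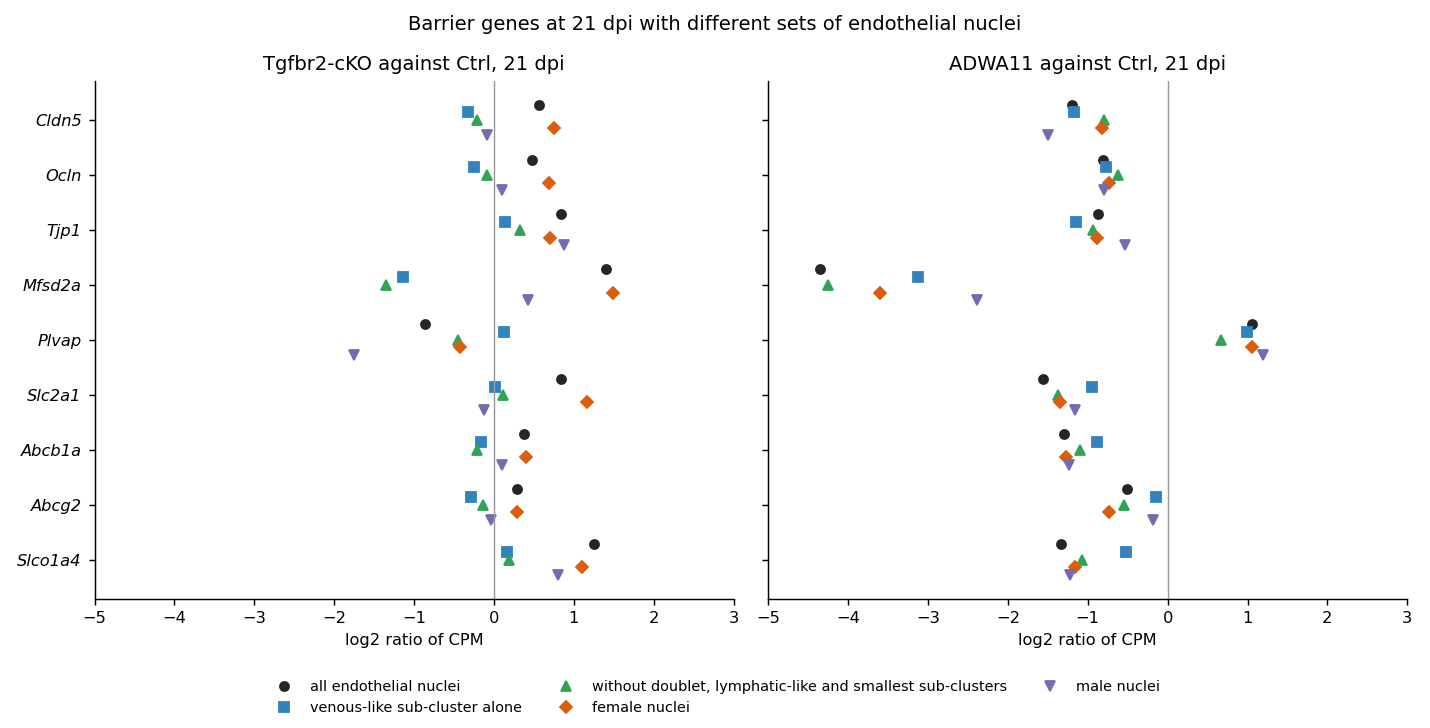
Log2 ratio of CPM of each gene against Ctrl at 21 dpi, for Tgfbr2-cKO (left) and ADWA11 (right), with 1 symbol for each set of endothelial nuclei. For ADWA11, 8 genes lie below 0 and Plvap above 0 in all 5 sets; for Tgfbr2-cKO, Cldn5 and Mfsd2a are above 0 in all endothelial nuclei, at 0.56 and 1.41, and below 0 in the venous-like sub-cluster.

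The 2 mice of a library can be told apart in part by Xist and Y-linked UMIs. In ADWA11 at 21 dpi, the median against Ctrl was -0.88 in nuclei of the female mouse (156 against 300) and -1.16 in those of the male (135 against 161). Cldn5 was at -0.82 and -1.50, Slco1a4 at -1.16 and -1.22, and Plvap at 1.06 and 1.19. In Tgfbr2-cKO at 21 dpi, the median was 0.71 in the female (56 against 300) and 0.10 in the male (36 against 161). Slco1a4 was higher in both, at 1.10 and 0.81, while Cldn5 was at 0.76 and -0.084 and Slc2a1 at 1.16 and -0.12. In ADWA11 at 7 dpi the mice differed in sign, with medians of -0.55 and 0.61. At 7 dpi in Tgfbr2-cKO, Slco1a4 was at 2.25 and 2.39 from 15 nuclei of each mouse. Each value is 1 animal against 1, so the spread between animals is not known.

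Nuclei with a Plvap UMI had lower Slco1a4 and Cldn5 levels than nuclei without one. After thinning, the 73 endothelial nuclei of Ctrl at 21 dpi with a Plvap UMI had 253 CPM of Slco1a4 and 61.6 CPM of Cldn5, and the 447 nuclei without one had 1239 and 407 CPM. In ADWA11 at 21 dpi the levels were 64.5 and 16.1 CPM in 93 nuclei with a Plvap UMI and 553 and 213 CPM in 256 without. Lymphatic-like nuclei, in which Plvap was high, are among those counted. Abcg2 did not follow this split at 21 dpi, at 925 and 772 CPM in Ctrl and 581 and 555 CPM in ADWA11. Among nuclei without a Plvap UMI, ADWA11 was below Ctrl for Slco1a4, Cldn5 and Slc2a1, the last at 186 against 444 CPM. These nuclei come from 1 library each and are not replicates.

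In fibroblasts, the class with most Abcb1a UMIs, the pump was at 123, 129 and 99.6 CPM in Ctrl, ADWA11 and Tgfbr2-cKO of day 7. On day 21 it was at 193, 205 and 117 CPM. Tgfbr2-cKO thus stood below Ctrl at 21 dpi, with a log2 ratio of -0.73 (-0.85 to -0.61), where endothelial nuclei stood above it. Fibroblasts of these libraries were spread differently over clusters. A single cluster held 1623 of 6253 in Ctrl and 3 of 683 in Tgfbr2-cKO at 21 dpi. The part of this make-up in the fibroblast ratios was not tested. Abcg2 in fibroblasts was at 0.38 (0.29 to 0.48) for Tgfbr2-cKO and 0.083 (0.025 to 0.14) for ADWA11 at 21 dpi. Slco1a4 in fibroblasts was 13.1, 5.44 and 49.5 CPM at 21 dpi in the same order, which follows the order in endothelial nuclei at a far lower level. Free RNA and doublets can carry endothelial UMIs into this class, and their part was not tested.

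The genes whose levels went most alike with each member over 52 sums of class and library in 10 classes, among 7010 genes with at least 200 endothelial UMIs, were ranked by Pearson's r of log2(CPM + 1). The sums share libraries and differ by class as well as by condition, so no p is given. Cldn5 went with Tie1 (0.943), Ushbp1 (0.934) and Dipk2b (0.925), Ocln with Dll4 (0.918), Nos3 (0.900) and Sema3g (0.897) and Plvap with Nos3 (0.910), Tie1 (0.902) and Ushbp1 (0.888). Tjp1 went with Stox2 (0.934), Nbea (0.908) and Prkd1 (0.906). For the transporters, the genes were Bsg (0.795), Abcc4 (0.792) and Cmtm8 (0.781) for Slc2a1, Btg3 (0.889), Itm2a (0.859) and Prkd2 (0.850) for Abcb1a, 4931406P16Rik (0.885), Hspa12b (0.881) and Rbms2 (0.874) for Abcg2 and Gm609 (0.853), Tbx1 (0.848) and Ocln (0.846) for Slco1a4. Mfsd2a went with Prom1 (0.833), Jam2 (0.766) and Bend7 (0.751).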

How the data were processed

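Single-nucleus RNA was measured in 6 droplet libraries, 1 per group. The authors deposited UMI counts per gene and barcode from Cell Ranger (7.2.0 in the file headers, 7.1.0 in the submitters' processing notes; mm10), not normalised. The paper links a packaged mm10 reference for download without spelling out its annotation release. Positions here came from GENCODE M21, which may differ from it. Per library, the lowest and highest 2.5% of UMIs and genes and the highest 2.5% of mitochondrial share were left out. Counts were normalised with SCTransform (3000 variable genes without the members, the listed pathway genes, mitochondrial and sex-linked genes) and clustered with 30 principal components at a resolution of 0.5. A class needed 3 raised markers (in 5% of nuclei or more, at 2 times the other nuclei) and more than any other class. A sub-cluster with over 50% of called doublets was taken as doublets, a rule set after seeing the data.

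UMIs were summed per class and library as CPM of non-mitochondrial UMIs with exact Poisson 95% intervals, and ratios carry exact conditional binomial intervals. All intervals cover counting error only. With 1 library per group there is no replicate and no test, and with 1 to 3 UMIs a ratio has little precision. A gene was counted as higher or lower at a fold of 2 or more with at least 5 expected UMIs in each library. Shares carry exact binomial (Clopper-Pearson) intervals. The rule for named genes took the 9 members, up to 3 called genes per pathway list and comparison with the largest ratio, the 3 most alike genes per member, and markers where a class is named. The result of 1 gene that this rule would name is not reported here. Members, lists and alternatives were chosen with earlier results of these data known. edgeR served for TMM scaling as an alternative. The calling rule was also run on simulated counts with counting error alone, which cannot show how it holds between mice. Python 3.11.15, numpy 2.4.6, scipy 1.17.1 and pandas 2.3.3 were used.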

Additional observations from a re-analysis of the deposited data

Results flagged for a closer look

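Some members had ratios on opposite sides of 0, each with an interval that left out 0, under the same contrast at different days or in different conditions. With 1 library per group the differences between these ratios were not tested. Against Ctrl, ADWA11 had Cldn5 at 0.76 at 7 dpi and -1.19 at 21 dpi, Slco1a4 at 0.24 and -1.33, and Plvap at -0.49 and 1.05, in log2 ratios of CPM. From 7 to 21 dpi, Cldn5 was at 0.62 in Ctrl, -1.34 in ADWA11 and -0.42 in Tgfbr2-cKO. Over the same days Ocln was at 0.31 in Ctrl and -0.46 in ADWA11, Mfsd2a at 2.43 and -2.84, Abcb1a at 0.64 and -0.51, and Slco1a4 at 1.26 and -0.31. By mouse, Slco1a4 in ADWA11 against Ctrl was below 0 on both days in female nuclei, at -0.47 and -1.16, and at 0.61 and -1.22 in male nuclei. From 7 to 21 dpi in ADWA11, female nuclei had Ocln at 0.87, Slco1a4 at 0.80 and Abcb1a at 0.08, where male nuclei had -1.13, -0.58 and -0.86. For ADWA11, the unnamed sub-cluster of 340 nuclei had Slco1a4 at 2.02 (1.06 to 3.14) and Abcb1a at 1.09 (0.48 to 1.74), from 81 against 32. The median there was 0.61 over 8 members. In venous-like nuclei, from 63 against 40, Slco1a4 was at -0.50 and Abcb1a at -0.51, with a member median of -0.51. The Mfsd2a values rest on 7 and 63 UMIs in Ctrl and 11 and 2 in ADWA11. These contrasts share libraries, so a high or low value in 1 library enters several of them.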

How the results depend on the processing

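No paired analysis was possible because each group was 1 library and no test was made. Clustering log-normalised counts, or with the members kept, moved no ratio beyond its interval, and the share of genes past 2-fold stayed within 1.5 times with an expected count of 2. Alternatives that set sub-clusters aside were chosen after seeing the data. In log2 ratios, the member median for ADWA11 against Ctrl at 21 dpi stayed below 0 in all 16 alternatives, at -0.88 in female nuclei, -0.89 in the largest (venous-like) sub-cluster, -0.95 without doublet and lymphatic-like sub-clusters and -0.93 without the smallest too. At 7 dpi it was -0.55 in female and 0.61 in male nuclei and 0.48 in the venous-like set. For Tgfbr2-cKO at 7 dpi it was 0.53 without the 5 nuclei with most UMIs of each gene. At 21 dpi it was 0.38 by the marker gate, 0.29 without called doublets, 0.77 after thinning, 0.10 in male nuclei, 0.35 without the 5 top nuclei, 0.17 without doublet sub-clusters and 0.17 without lymphatic-like ones too. It turned to -0.17 in the venous-like set and -0.14 without the smallest sub-cluster as well, and Mfsd2a turned to -1.13 and -1.36. From 7 to 21 dpi in Ctrl the median was 0.80 without called doublets, 0.94 in male nuclei, 0.86 in the venous-like set, 0.93 without doublet sub-clusters and 0.98 without lymphatic-like ones too. In ADWA11 it was -0.86 in male nuclei and -0.17 without the 5 top nuclei, and turned to 0.62 in female nuclei, 0.065 without doublet and lymphatic-like sub-clusters and 0.15 without the smallest too. In Tgfbr2-cKO it was 0.50 without the 5 top nuclei, and turned to -0.0066 after thinning and -0.11 in male nuclei. Mfsd2a in Tgfbr2-cKO turned to -0.0066 after thinning and -0.029 in male nuclei. Causes were not tested beyond what each set leaves out. Tgfbr2-cKO at 7 dpi had 37 endothelial nuclei, and Mfsd2a had few UMIs.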

Other observations

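Outside the endothelium, Mfsd2a in astrocytes was at 8.59, 4.09 and 16.4 CPM in Ctrl, ADWA11 and Tgfbr2-cKO of day 7. On day 21 it was at 10.5, 1.44 and 22.3 CPM. Tjp1 in astrocytes was at 615, 609.7 and 1070.1 CPM, then 732, 537 and 799 CPM. Slc2a1 in myeloid nuclei, which hold 36.4% of its UMIs, was at 17.4, 16.3 and 55.1 CPM at 7 dpi and 27.3, 14.2 and 24.8 CPM at 21 dpi. Abcb1a in T cells was at 125, 152 and 54.2 CPM at 21 dpi in the same order.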
